A study of Mus musculus with 8 samples.

Results

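The genes described here are the transcriptional arm of the Hippo pathway and its best known targets: Yap1 and its paralog Wwtr1 (Taz), the DNA-binding partners Tead1 to Tead4, and the target genes Cyr61, Ctgf, Amotl2 and Lats2. They were picked by symbol, giving 10 of the 53801 genes of the count table. RNA of sorted Paneth cells, the antimicrobial secretory cells of the small intestinal crypt, was sequenced in 8 libraries, 4 of the genotype β-cat GOF; Mll1+/- (called controls 1 to 4) and 4 of β-cat GOF; Mll1-/- (called knockouts 1 to 4). Both groups carried β-catenin stabilized by deletion of exon 3, and both carried Lgr5-EGFP-IRES-CreERT2, so the genotypes differed in whether 1 or both Mll1 (Kmt2a) alleles were floxed. By the genotype labels and the series description, no library came from mice with unmutated β-catenin or with both Mll1 alleles intact. The mice were 4 to 6 wk old when they received 1 mg tamoxifen on 3 consecutive days, and 300 viable EpCAM+ Cd24+ cells per library were taken 10 d after induction. Because the Lgr5 promoter drives the Cre, recombination starts in stem cells and is mosaic between crypts. The study stained crypts for Mll1 protein at the time of the sort. It reported that the crypt cells lacked the protein, Paneth cells at the crypt base among them. The share of recombined cells in a pool was not measured here.

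In the Hippo pathway the kinases Stk3 and Stk4 (Mst2 and Mst1) activate Lats1 and Lats2, which phosphorylate Yap and Taz and keep them out of the nucleus. Unphosphorylated Yap and Taz bind Tead factors and switch on genes such as Cyr61 and Ctgf, which encode secreted matrix proteins, and Amotl2 and Lats2, which restrain Yap in turn. Yap is dispensable for much of intestinal homeostasis and is known for its part in regeneration after injury. The RNA level of a pathway member does not show its phosphorylation or its place in the cell, which were not measured here.

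Tead factors recognise the letters GGAATG, or CATTCC on the other strand, and the stretches below show where these letters stand just upstream of members. RefSeq promoters (GRCm38.p6) were held for 7 of the 10 members, at 11 start sites, and the 150 bases before each start were searched on both strands. The letters were present at 5 of the 11 sites, each from a different member, against 7.59% of 32851 promoters of the same length. Each line gives 30 bases 5′ to 3′ on the strand of the gene, with the match in capitals.
Cyr61: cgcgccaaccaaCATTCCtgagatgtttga
Amotl2: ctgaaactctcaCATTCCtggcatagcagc
Yap1: gagtctgcaGGAATGtagcgacgcgcaggg
Wwtr1: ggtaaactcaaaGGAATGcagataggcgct
Tead3: gccgggctCATTCCgtaCATTCCggccatc
The stretch of Cyr61 lies on the minus strand at chr3:145650071-145650100, and its match starts 103 bases before the start site. That of Amotl2 lies on the plus strand at chr9:102717727-102717756, within the first exon that GENCODE annotates for longer transcripts. Those of Yap1, Wwtr1 and Tead3 lie on the minus strand at chr9:8004717-8004746, chr3:57576029-57576058 and chr17:28350702-28350731. Tead3 alone held 2 copies, at the second of its 3 start sites and within annotated exons of other Tead3 transcripts, and 0.396% of all promoters held 2 or more. A match is only a string of letters, and binding was not measured in these mice.

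Every library held between 13037832 and 14380240 counts on genes. Paneth genes were abundant in all of them, as 17 Paneth markers summed to between 288367 and 786073 normalized CPM (counts scaled to the TMM-corrected library size). The TMM factors ran from 0.632 in knockout 3 to 1.34 in knockout 2, so these sums are not shares of the counts. Knockout 3 stood apart in complexity: 19662 genes had a count there against 22623 to 26074 in the others, and 852 of the 13439 tested genes (6.34%) had 0 or 1 count against 18 to 100 genes elsewhere. The log2 fold change of each tested member is given with and without this library. Kmt2a itself had 268 to 719 counts in the controls and 328 to 523 in the knockouts, which does not check the labels because reads over the undeleted exons still count. Stromal markers were near 0, with a summed level of 1.17 to 2.14 normalized CPM over 12 genes and Col3a1, Myh11, Tagln, Des and Thy1 at 3 counts or fewer in every library. Endothelial markers summed to 6.81 to 11.0 over 9 genes, with Kdr, Emcn and Cldn5 at 3 counts or fewer, and immune markers to 2.49 to 15.2 over 10 genes, with Cd3e, Cd79a, Itgax, Adgre1 and Gzma at 3 counts or fewer. Other crypt epithelium was measurable: tuft markers summed to 154 to 518 in the controls and 84.6 to 335 in the knockouts, enteroendocrine markers to 192 to 571 and 44.7 to 178, and stem markers to 719 to 1551 and 284 to 972. In these pools fewer cells of a type cannot be told apart from less RNA per cell.

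None of the members was called different between the genotypes. Of the 10 members 8 passed the filter on low counts, and 0 of these 8 passed an adjusted p of 0.05 together with a log2 fold change of 0.5, where 0.186% of all 13439 tested genes did (edgeR's quasi-likelihood test, Benjamini-Hochberg adjustment). Their smallest adjusted p was 0.854, for Tead2. At an unadjusted p under 0.05 the count was also 0 of 8, against 6.88% of all tested genes, and the genotypes overlapped for all 10 members, while they did not overlap for 4.52% of tested genes. DESeq2's Wald test and limma-voom called none of them either. All 8 log2 fold changes were above 0, with a median of 0.39 against 0.01 over all tested genes, of which 50.9% were above 0. This agreement in sign was not stable, since 6 or 7 of the 8 were above 0 in 6 of the 8 fits with a library removed.

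**Figure D1:**
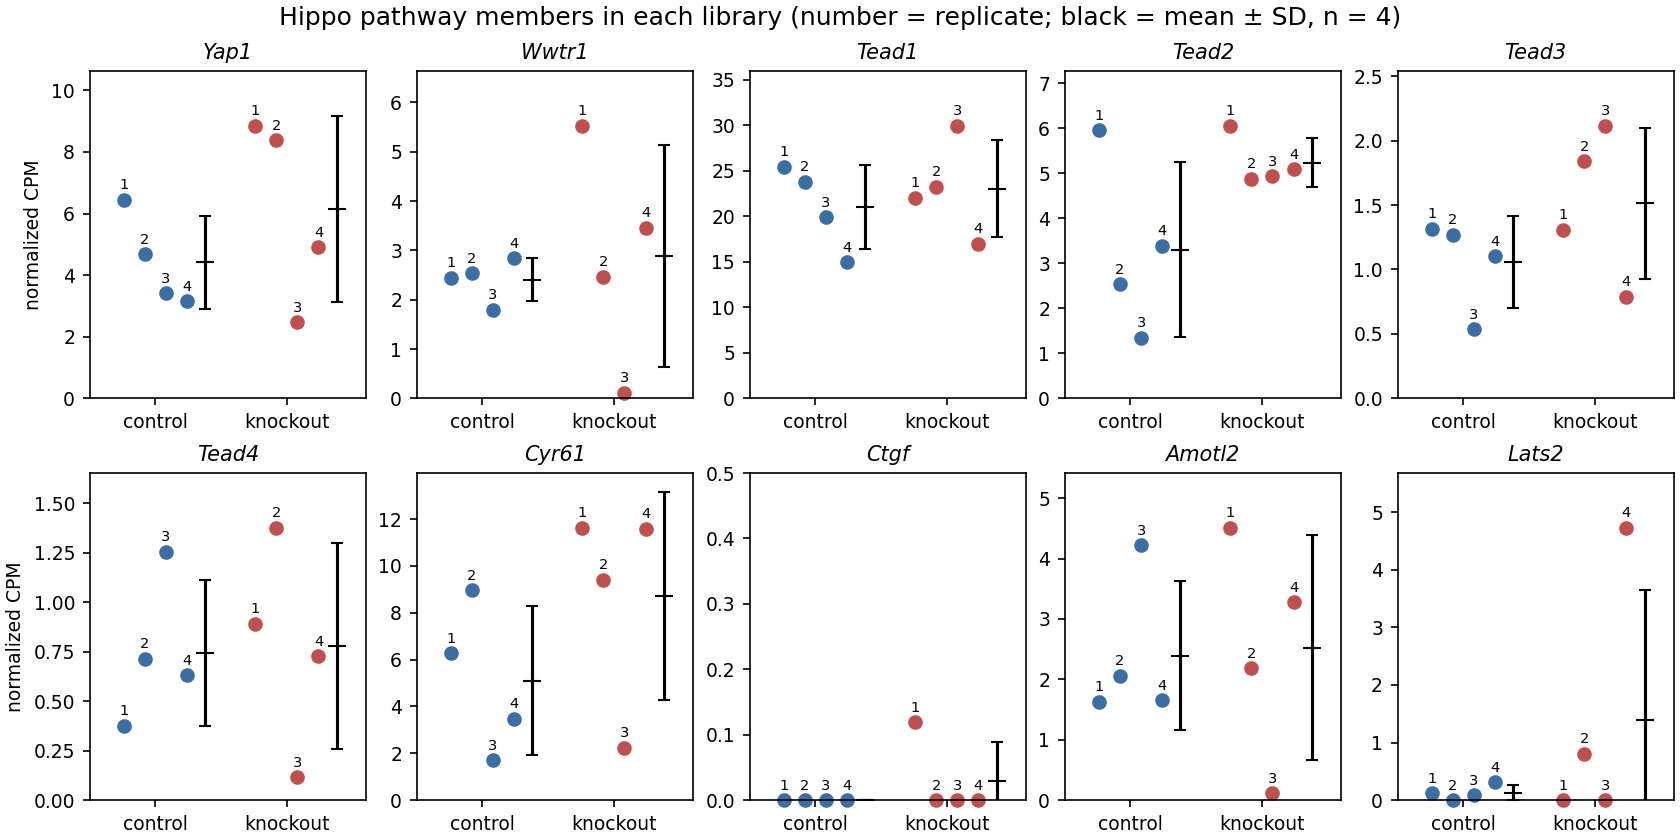
Normalized CPM (vertical axes, each from 0) of the 10 members in each of the 4 control libraries (blue) and 4 knockout libraries (red), with the replicate number above each point and the mean ± SD in black (bars cut at 0). The genotypes overlap in every panel, and knockout 3 is the lowest knockout for Yap1, Wwtr1, Tead4, Cyr61 and Amotl2 but the highest for Tead1 and Tead3.

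The coactivators were both expressed at a low level. Yap1 (chr9:7931999-8004596, minus strand, GRCm38) had 103, 59, 38 and 40 counts in controls 1 to 4 and 149, 146, 21 and 81 in knockouts 1 to 4. After scaling the control mean was 4.43 ± 1.51 normalized CPM and the knockout mean 6.15 ± 3.02 (SD, n = 4 each). Knockouts 1 and 2 lay above every control and knockout 3 below every control. The log2 fold change was 0.48 with an approximate standard error of 0.40 and an adjusted p of 0.916, and its 95% interval, -0.40 to 1.37, still allows a 2.58-fold higher level. It was 0.73 without knockout 3 (adjusted p = 0.406) and 0.27 without knockout 1. Libraries 1 and 2 of each genotype share a run of label numbers, here called a library set, as do libraries 3 and 4. Within the first set the log2 ratio of the means was 0.63, and within the second it was 0.17. Yap1 and the summed tuft markers were both lower on average in the second set, where Yap1 averaged 3.28 in controls and 3.69 in knockouts against 5.57 and 8.62. The tuft sum was 192 to 518 in the first set and 84.6 to 217 in the second. Genes with a count were also fewer in the second set, at 19662 to 23351 against 25103 to 26074. The part of either in the Yap1 values was not tested.

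Wwtr1 (chr3:57455649-57575910, minus strand), which encodes Taz, had 39, 32, 20 and 36 counts in the controls and 93, 43, 1 and 57 in the knockouts. The controls were close together, at 2.40 ± 0.44 normalized CPM, whereas the knockouts spread from 0.117 in knockout 3 to 5.52 in knockout 1, at 2.89 ± 2.25 (SD, n = 4 each). Both extremes were thus knockouts. Their log2 fold change was 0.29, with a 95% interval from -1.12 to 1.70 and an adjusted p of 0.985. It was 0.66 without knockout 3 and -0.20 without knockout 1, and the sets gave 0.68 and -0.38, so no direction can be read for Wwtr1.

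Of the Teads, Tead1 was on average the most abundant per kilobase of exon, and Tead3 and Tead4 were the least abundant. Tead1 (chr7:112679318-112906807, plus strand) was the best measured member, with 406, 300, 222 and 190 counts in the controls and 371, 405, 255 and 280 in the knockouts. Its levels were 21.0 ± 4.65 and 23.1 ± 5.34 normalized CPM (SD, n = 4 each), and the knockouts ran from 17.0 in knockout 4 to 30.0 in knockout 3, against a control range of 15.0 to 25.4. The log2 fold change of 0.13 had the narrowest interval of the 8, -0.36 to 0.62, which puts the fold between 0.777 and 1.54 (adjusted p = 0.979). Here the depth was enough to bound the difference, and without knockout 3 it was -0.024.

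Tead2 (chr7:45215753-45233644, plus strand) had 95, 32, 15 and 43 counts in the controls and 102, 85, 42 and 84 in the knockouts. The knockouts lay within a narrow band, at 5.24 ± 0.55 normalized CPM, while the controls ranged from 1.35 in control 3 to 5.95 in control 1, at 3.31 ± 1.95 (SD, n = 4 each). All 4 knockouts therefore exceeded controls 2, 3 and 4, and control 1 exceeded 3 of the knockouts. This gave a log2 fold change of 0.65 (95% interval -0.22 to 1.53, adjusted p = 0.854), and it was 1.11 without control 1, 0.40 without control 3 and 0.67 without knockout 3 (smallest adjusted p over all alternatives 0.287).

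Tead3 (chr17:28331671-28350805, minus strand) had 6 to 21 counts in the controls and 13 to 32 in the knockouts, and Tead4 (chr6:128224288-128300823, minus strand) had 6 to 14 and 1 to 24. Their log2 fold changes were 0.49 (95% interval -0.58 to 1.56, adjusted p = 0.942) and 0.13 (-1.26 to 1.53, adjusted p = 0.995). Without knockout 3 they were 0.30 and 0.44. A 2-fold difference in either direction lies within the interval of Tead4, as it does for Wwtr1 and Amotl2. Tead4 rose from control to knockout in the first library set, 0.545 against 1.13 normalized CPM, and went the other way in the second, 0.944 against 0.423, neither difference being tested.

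**Figure D2:**
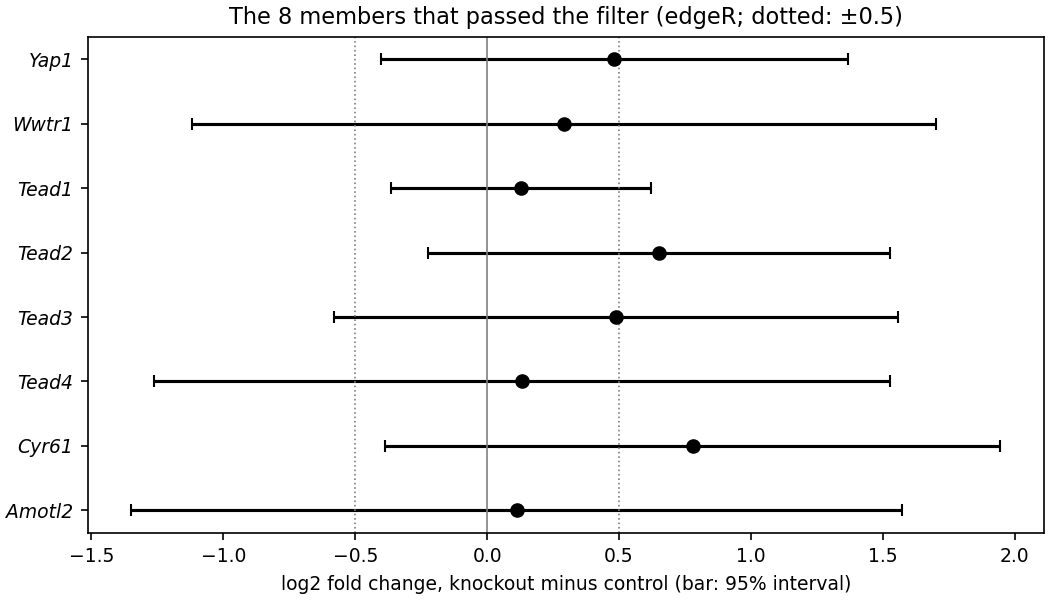
Log2 fold change, knockout minus control, of the 8 members that passed the filter (horizontal axis, points) with the 95% interval of each (bars), a solid line at 0 and dotted lines at ±0.5. Every interval spans 0, from the narrowest, for Tead1 (-0.36 to 0.62), to the widest, for Amotl2 (-1.35 to 1.57).

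Counts divided by exon length let the paralogs be set against each other. Over 8 libraries the share of Tead1 in the counts per kilobase of all 4 Teads was 46.4% to 66.1%, and Tead2 held 12.7% to 39.5%, Tead3 5.51% to 12.8% and Tead4 0.870% to 15.7%. Tead1 was thus the first of the 4 in each library. Its mean share was 58.0% ± 7.99 over the controls and 50.3% ± 5.79 over the knockouts (SD, n = 4), a difference that was not tested. Knockout 3 was at 58.8% and the other knockouts at 46.4% to 48.5%. Yap1 and Wwtr1 were nearly even, with Yap1 at 48.1% ± 8.76 of their sum in the controls and 60.7% ± 22.6 in the knockouts, where the highest value, 91.6%, belongs to knockout 3 and its single Wwtr1 count, and the other knockouts were at 42.3% to 63.7%.

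**Figure D3:**
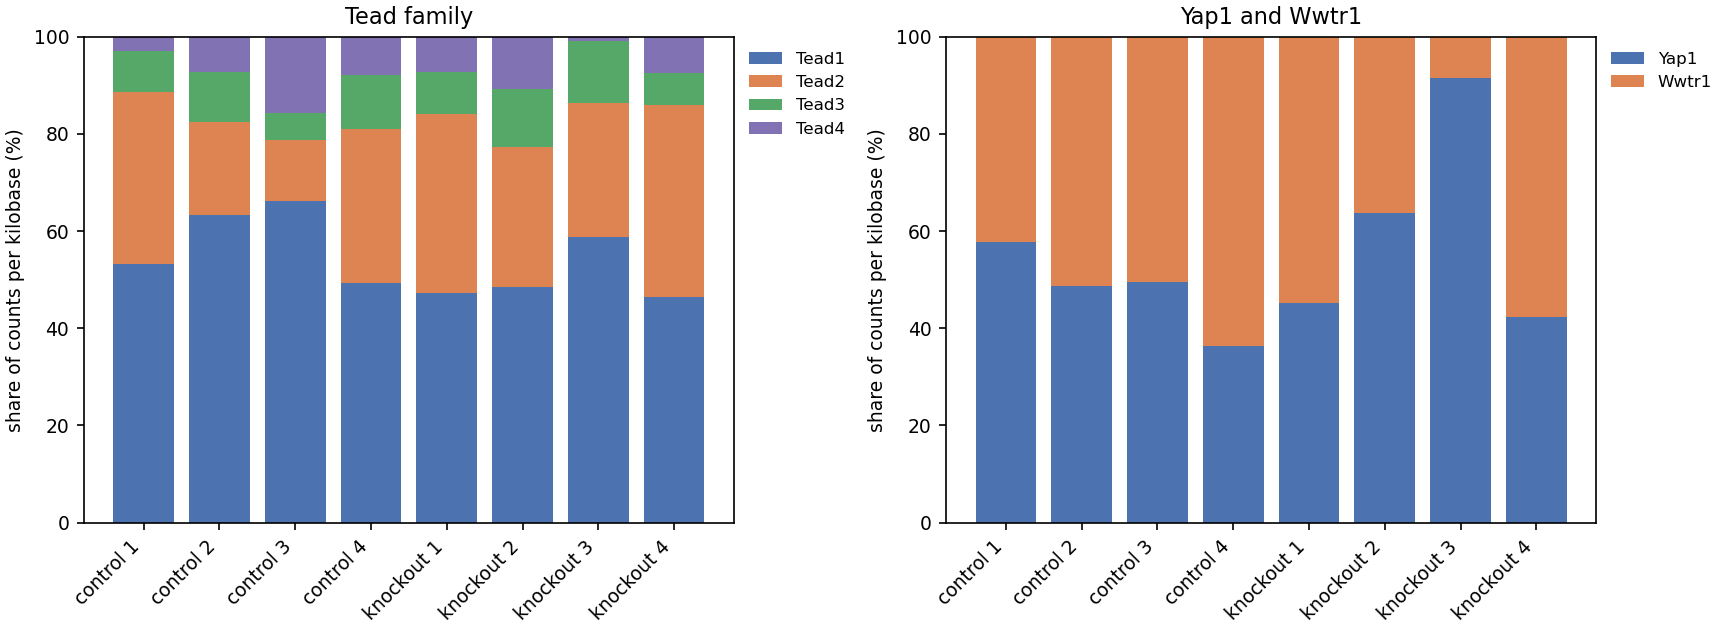
Share of counts per kilobase of exon (vertical axis, percent) taken by each Tead (left) and by Yap1 and Wwtr1 (right) in each library (horizontal axis). Tead1 takes 46.4% to 66.1% in all 8 libraries, while Yap1 takes 36.5% to 63.7% in 7 libraries and 91.6% in knockout 3.

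Across all 10 members the order of mean normalized CPM per kilobase over 8 libraries was Cyr61 at 3.42, Tead1 at 1.62, Tead2 at 0.893, Yap1 at 0.571, Wwtr1 at 0.554, Amotl2 at 0.391, Tead3 at 0.292, Tead4 at 0.212, Lats2 at 0.109 and Ctgf at 0.00519. Tead1 was above Tead2 in 8 of 8 libraries. Yap1 was above Wwtr1 in only 3 of 8 and Amotl2 above Tead3 in 5 of 8, so these neighbours did not differ beyond their spread, and Cyr61 was above Tead1 in 6 of 8. Against the tested genes, Cyr61 stood at the 72.4th percentile per kilobase, Tead1 at the 52.8th, Yap1 at the 22.4th and Tead4 at the 4.87th.

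Among the targets, Cyr61 and Ctgf stood at opposite ends of abundance. Cyr61 (Ccn1, chr3:145646976-145649981, minus strand), whose upstream stretch is printed above, had 100, 113, 19 and 44 counts in the controls and 196, 164, 19 and 191 in the knockouts. Knockouts 1, 2 and 4, at 11.6, 9.42 and 11.6 normalized CPM, lay above the highest control, at 8.97, whereas knockout 3, at 2.23, lay below 3 of the 4 controls. The means were 5.10 ± 3.19 and 8.72 ± 4.45 (SD, n = 4 each), and 10.9 ± 1.27 over the knockouts other than knockout 3. The log2 fold change, 0.78, was the highest of the 8 members, with a 95% interval from -0.39 to 1.95 and an adjusted p of 0.888. It was 1.08 without knockout 3, 1.19 without control 2 and 0.49 without control 3, and it was above 0 in both library sets, at 0.47 and 1.42. No alternative brought its adjusted p below 0.226.

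Ctgf (Ccn2, chr10:24595442-24598683, plus strand) was at 0 counts in 7 libraries and at 2 counts in knockout 1. A count of 3, the limit that a count of 0 allows, corresponds to 0.172 to 0.352 normalized CPM in these libraries, so Ctgf was not detectable at this depth and no fold change is given. Of its exon bases 23.2% are shared with Gm15270 on the other strand, which had at most 1 count.

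Amotl2 (chr9:102716672-102733418, plus strand), an angiomotin family protein that holds Yap at junctions, had 26, 26, 47 and 21 counts in the controls and 76, 38, 1 and 54 in the knockouts. Control 3, at 4.22 normalized CPM, stood above the other controls, at 1.63 to 2.06, and close to the highest knockout, at 4.51. With all libraries the log2 fold change was 0.11 (95% interval -1.35 to 1.57, adjusted p = 0.995), with 0.48 without knockout 3, 0.52 without control 3 and -0.30 without knockout 1. Yap1 and Amotl2 lie on the chromosome of Kmt2a, 36.8 and 57.8 Mb from it.

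Lats2 (chr14:57689662-57758388, minus strand), a target of Yap that encodes one of its kinases, was the most uneven member. It had 2, 0, 1 and 4 counts in the controls and 0, 14, 0 and 78 in the knockouts, and 78.8% of its 99 counts came from knockout 4. In normalized CPM knockout 4 was at 4.73 and knockout 2 at 0.804, while knockouts 1 and 3 were at 0, below 3 of the controls. Lats2 failed the filter, and when the filter was dropped edgeR called it (log2 fold change 3.33, adjusted p = 0.0246, where 0.783% of 37039 genes were called). That call rests on 2 libraries: the exact permutation test of the normalized CPM gave p = 0.429 (two-sided). Of its exon bases 42.4% are shared with Gm49361 on the same strand, which had 0 counts in every library.

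The exact permutation tests of the mean normalized CPM of the 9 members with more than 3 counts in some library gave unadjusted p from 0.114 (Tead2) to 0.914 (Amotl2), where the smallest p that 4 against 4 libraries allow is 0.0286. Cyr61 and Tead3 gave 0.229 and Yap1 0.343.

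**Figure D4:**
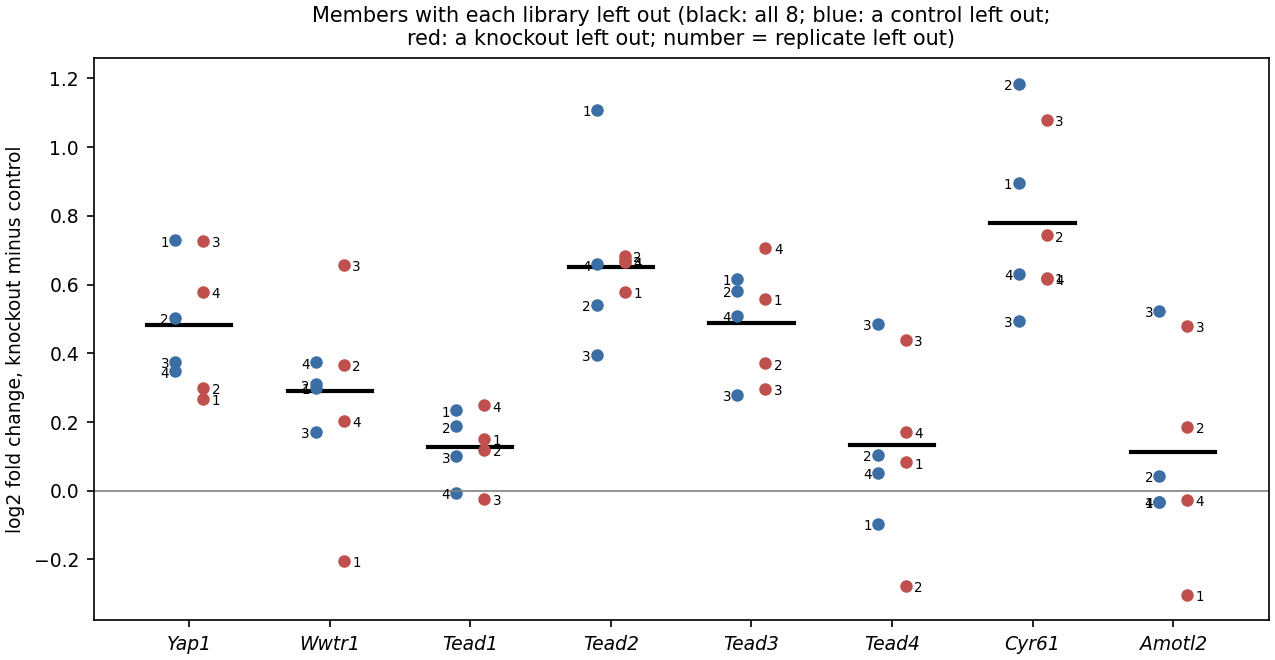
Log2 fold change, knockout minus control (vertical axis), of the 8 tested members with all libraries (black line) and with each control (blue) or knockout (red) left out, the number naming the replicate left out. Yap1, Tead2, Tead3 and Cyr61 stay above 0 in all 8 fits, whereas Wwtr1, Tead1, Tead4 and Amotl2 cross 0 in at least 1.

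A set of 4 Hippo and Yap lists and a list of immediate early genes give the surroundings of the members. No gene of these lists was called by edgeR, where 0.186% of all tested genes were, or by limma-voom, and DESeq2's Wald test called Clu alone. Of 23 upstream kinases and adaptors 19 were tested, 8 with a log2 fold change above 0 and 11 below, with a median of -0.06, and none had an unadjusted p under 0.05, against 6.88% of all tested genes. The core kinases, chosen for display after their values were seen, were well measured. Lats1 averaged 21.2 ± 2.32 normalized CPM over the controls and 20.3 ± 8.33 over the knockouts, with a log2 fold change of -0.06 (95% interval -0.65 to 0.53). Stk3 gave 0.64 (-0.11 to 1.40) and Stk4 -0.49 (-1.34 to 0.35), and Mob1b, an adaptor of Lats, gave -0.10 (-0.48 to 0.27). Lats1, at 118 to 513 counts per library, was thus present in each library, unlike Lats2.

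Of 17 restraints of Yap and cofactors of Tead 14 were tested, 12 of them above 0, against 50.9% of all tested genes, with a median of 0.11. The 1 gene of the 14 with an unadjusted p under 0.05, a share near the 6.88% of all tested genes, was Ptpn14, a phosphatase that binds Yap and is also counted among its targets. It had 13, 9, 8 and 10 counts in the controls and 60, 15, 9 and 40 in the knockouts. The genotypes did not overlap, at 0.714 to 0.815 and 0.861 to 3.56 normalized CPM, as was so for 4.52% of all tested genes. Knockout 2 exceeded the highest control only slightly. With control counts near the filter's minimum of 10, Ptpn14 could pass the filter through the knockouts, so its separation is only a description. The log2 fold change of 1.38 ± 0.53 (SE) did not pass the adjustment (adjusted p = 0.609).

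A signature of 18 Yap and Taz targets known from other cell types was measured only in part. Of the 18 genes 8 passed the filter, and Ankrd1, Axl and Foxf2 had 3 counts or fewer in every library. Of the 8 tested, 2 were above 0 and 6 below, with a median of -0.17, and 3 of them, Ptpn14, Rbms3 and Gadd45a, had an unadjusted p under 0.05, as did 6.88% of all tested genes. Rbms3, an RNA-binding protein, had 75, 27, 140 and 30 counts in the controls and 366, 450, 76 and 195 in the knockouts. Its log2 fold change was 1.66 ± 0.54 (SE, adjusted p = 0.474) and 2.47 without control 3, where it was not called either. Control 3 lay above knockouts 3 and 4, and within the library sets the log2 ratio was 2.80 and 0.48. Gadd45a, a stress-induced growth arrest gene, went the other way. Its controls, at 9.28 to 13.9 normalized CPM, did not overlap its knockouts, at 5.05 to 8.73, as was so for 4.52% of all tested genes. Its log2 fold change was -0.58 ± 0.25 (SE, adjusted p = 0.671), and 19.1% of its exon bases are shared with E230016M11Rik on the other strand.

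**Figure D5:**
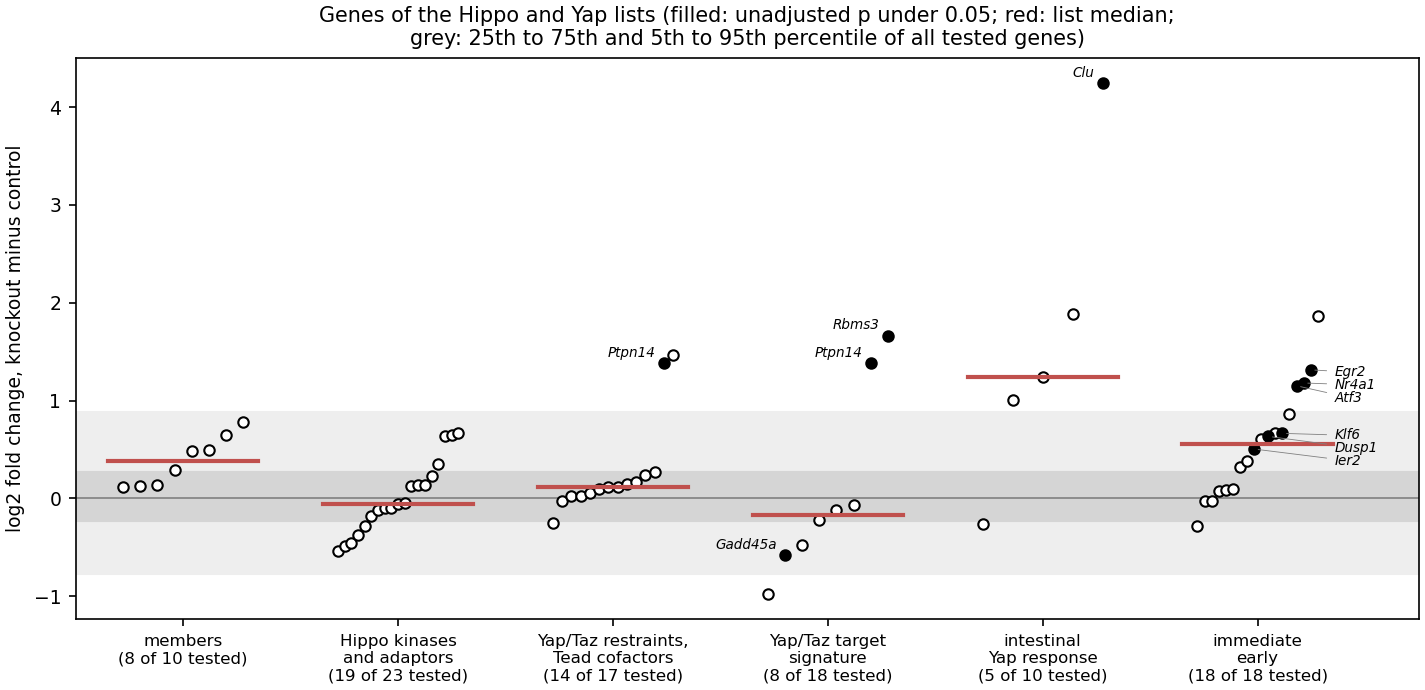
Log2 fold change, knockout minus control (vertical axis), of each tested gene in the members and 5 other lists, ordered within a list, with the list median in red, genes with an unadjusted p under 0.05 filled, and the 25th to 75th and 5th to 95th percentiles of all tested genes in grey. The medians are 0.39 for the members, -0.06, 0.11 and -0.17 for the kinases, restraints and signature, and 1.24 and 0.56 for the intestinal Yap response and the immediate early genes.

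The list of 10 genes of the intestinal Yap response, those of the regenerating epithelium, had 5 tested genes, 4 of them above 0, with a median of 1.24. Clu alone of the 5 had an unadjusted p under 0.05, against 6.88% of all tested genes. A gene with few counts in the controls can pass the filter through the knockouts, so this median is a description and supports nothing. Clu, a secreted chaperone that marks revival stem cells, had 13, 10, 9 and 4 counts in the controls and 619, 143, 28 and 64 in the knockouts. All 4 knockouts lay above all 4 controls, but knockout 1, at 36.8 normalized CPM, was far above the others, at 3.29 to 8.21. Its log2 fold change was 4.24 ± 0.80 (SE) with an adjusted p of 0.079, and it was called without knockout 3 (adjusted p = 0.0488, where 1.08% of 14086 genes were called), by DESeq2's Wald test (6.8e-07, 1.03% of 13439 genes) and with the library set as a block (0.0469, 0.179%). At a false discovery rate of 10% it passed with all libraries. It was not called by limma-voom (adjusted p = 0.342), with a Y-linked covariate (0.339) or with any control left out (0.245 to 0.279), and without knockout 1 its log2 fold change was 2.91 (0.0722). Ly6a, also called Sca-1, lies outside the rule for named genes, was named after its values were seen and failed the filter. It had 1, 0, 2 and 4 counts in the controls and 152, 14, 0 and 73 in the knockouts, and its reads may be split with other members of the Ly6 family. It was called with no filter (adjusted p = 1.68e-06) and without knockout 3 (0.0177), the knockout at 0 counts. In the latter fit it passed the filter through the knockouts where it is high, and the exact permutation test of the normalized CPM over all 8 libraries gave p = 0.143 (two-sided).

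Cyr61 is also an immediate early gene, a gene induced within minutes of a stimulus without new protein. All 18 of its genes were tested, 15 with a log2 fold change above 0, against 50.9% of all tested genes, and with a median of 0.56. None was called, and 6 of the 18 had an unadjusted p under 0.05, all higher in the knockouts, against 6.88% of all tested genes in either direction. The largest of these 6 were Egr2 at 1.31 ± 0.52, Nr4a1 at 1.18 ± 0.36, Atf3 at 1.15 ± 0.37 and Klf6 at 0.66 ± 0.22 (SE, adjusted p = 0.631, 0.422, 0.473 and 0.484), all encoding stress-induced or growth factor-induced transcription factors. The summed level of all 18 genes was 416, 745, 528 and 677 normalized CPM in controls 1 to 4 and 724, 711, 995 and 676 in knockouts 1 to 4. Knockout 3 was the highest of all 8 libraries in this scaled sum and the second lowest in Cyr61. Its TMM factor, 0.632, was the lowest, against 0.822 to 1.34 in the others. A low factor raises scaled levels, and the part of this in the rank was not tested. Over 8 libraries the log2(CPM + 1) of Cyr61 and of the sum had a Pearson r of 0.00718 (exact permutation p = 0.986) and a Spearman rho of 0.143 (exact permutation p = 0.752). Without control 1 and knockout 3, the libraries farthest from the median of the sum, r was 0.835 over 6 libraries (exact permutation p = 0.0542) and rho 0.429 (exact permutation p = 0.419). The r near 0 thus rests on those 2 libraries, and no relation passed 0.05 with or without them. Each genotype and each library set holds 4 libraries, too few for a value of its own, and the same relation for Ctgf was not computed, as no library had more than 3 of its counts.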

How the data were processed

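The authors made Smart-seq2 libraries of 300 sorted cells, aligned the reads to mm10 with GSNAP and used featureCounts 1.6.3 to count the reads that mapped to 1 place. The deposited values are raw counts per gene, with no normalization by the authors. The strand setting of the counting is not given in the sources used here, which leaves genes that overlap on either strand uncertain.

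The 92 spike-in rows were left out. Symbols matched 53620 of 53801 genes, and Cyr61 and Ctgf were found through RefSeq synonyms of Ccn1 and Ccn2. The members and lists were chosen with earlier results of these data known. Groups follow the genotype labels, and replicate numbers are only names. The β-cat GOF allele was taken from the series description, as the study's methods on Paneth cell isolation do not name it. An animal number in the labels is shared by control 4 and knockout 4 and was not used, and whether it is a typing error or a shared animal is not given in the sources used here. Every pair of libraries differed by more than sampling noise, with a chi-square per degree of freedom of at least 12.4. The study describes the mice of the genotypes as littermates, and which mice share a litter is not given in the sources used here.

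With R 4.3.3 and edgeR 4.0.16, TMM factors and robust quasi-likelihood fits were computed for the 13439 genes past filterByExpr (minimum count 10, minimum total 15). Normalized CPM are counts divided by the TMM-corrected library size. The standard error is the size of the log2 fold change over the square root of F, and intervals are 95%. A gene was called past 2 limits, 0.05 for the adjusted p and 0.5 for the size of the log2 fold change. The common biological coefficient of variation was 0.376. Exact permutation tests used the 70 assignments of 8 libraries. Floors of 3 counts cover counting error only, and reads without molecular identifiers are not independent molecules. Scripts were tested on simulated data.

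Named are all members, list genes past both limits, and in each of 5 lists up to 4 genes with the largest change among those with an unadjusted p under 0.05. Lists of goblet and enterocyte markers were also counted: of 8 and 8 genes 8 and 6 were tested and none was called, with medians of 0.13 and -0.83. The study's comparison was made with DESeq2; DESeq2 1.42.0 and limma 3.58.1 were alternatives here. Others were RLE and upper-quartile scaling, no filter, library sizes that leave out the 50 most abundant genes, 10 counts in every library, the library set as a block, robust=FALSE, a Y-linked covariate, thinning to 13037832 counts, a 10% false discovery rate and each library left out. Leaving out knockout 3 from the correlation was chosen after seeing the data. A gene of the lists was counted with the others and is not reported here. Promoters were matched by symbol to RefSeq.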

Additional observations from a re-analysis of the deposited data

Results flagged for a closer look

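In 40 groups of 4 libraries examined with Dixon's test, 7 held a library set apart from the other 3. About 2 would be expected of independent, normally distributed groups. These groups are not independent, as Nr4a1 is also part of the immediate early sum, so the 2 counts cannot be weighed against each other. Among the members, Amotl2 was at 4.22 normalized CPM in control 3 against 1.63 to 2.06 in the other controls, and Lats2 at 4.73 in knockout 4, with the other knockouts at 0 to 0.804. Clu was at 0.316 in control 4, below the 0.793 to 0.815 of the other controls, and at 36.8 in knockout 1, above the 3.29 to 8.21 of the other knockouts. Knockout 3 was set apart in 3 groups: Nr4a1 at 35.7 against 18.0 to 19.3, the summed immediate early genes at 995 against 676 to 724, and the Tead1 share per kilobase at 58.8% against 46.4% to 48.5%. Before scaling, Nr4a1 had 313, 313, 304 and 318 counts in knockouts 1 to 4, so knockout 3 was not higher there. The TMM factor of knockout 3 was 0.632, against 1.22 to 1.34 in the other knockouts. Knockout 3 is also the library with the fewest genes detected, and the part of that in these values was not tested.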

How the results depend on the processing

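The count of members called stayed at 0 under every alternative except no filter, which called 1 (Lats2). The count over all tested genes, 25, was 290 with no filter, 13 with at least 10 counts in every library, 138 with DESeq2's Wald test, 101 with limma-voom, 10 with a Y-linked covariate and 38 at a false discovery rate of 10%, and between 10 and 152 with a library left out, the highest without knockout 3. The count over the 5 lists, 0, was 5 with no filter (Atf3, Nr4a1 and Rbms3 among them), 1 with DESeq2's Wald test and 1 with the library set as a block or at a false discovery rate of 10% (Clu each), and 0 to 3 with a library left out, the 3 (Clu among them) without knockout 3. With the Y-linked covariate Tead4 turned to -0.16 and Amotl2 to -0.010. With a library left out Wwtr1 ranged from -0.20 to 0.66, Tead1 from -0.024 to 0.25, Tead4 from -0.28 to 0.49 and Amotl2 from -0.30 to 0.52, and the cause was not tested. Yap1, Tead2, Tead3 and Cyr61 stayed above 0 under every alternative run, at 0.27 to 0.85, 0.40 to 1.11, 0.28 to 0.71 and 0.49 to 1.32, on both sides of 0.5, and none of their adjusted p fell below 0.226. Counts without length put the Tead1 share at 80.5% in controls and 74.9% in knockouts and the Yap1 share at 63.9% in controls, since Tead1 and Yap1 have the longer exons. The correlation of Cyr61 with the immediate early genes was 0.00294 with a pseudocount of 0.1 and 0.471 without knockout 3, with no call in either. No paired analysis was possible because the labels carry animal numbers, of which the genotypes share only 1, and the litters of the mice are not given. The library set as a block compares genotypes within sets and pairs no mice. Low counts kept Ctgf and Lats2 out of the main fit.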
